A study of Mus musculus with 24 samples.

Results

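The 8 genes examined here lie beside Maf on mouse chromosome 8 and were followed through RNA-seq of the colon, to see whether the lower Wwox level of one knockout group reached other genes of the same stretch. The 8 genes are Adamts18, Nudt7, Vat1l, Wwox, Dynlrb2, Cdyl2, Cenpn and Cmip, out of 24346 gene symbols in each of 24 libraries. They were listed by position around Maf, except that Wwox entered because its level in the group titled 1_hetero had already been seen to be low. The Wwox values of that group are therefore a description and carry no test, whereas the other genes were tested. Colorectal tissue came from mice on AOM/DSS, a regimen in which the carcinogen azoxymethane is followed by the polymer dextran sulfate sodium, whose colitis promotes colon tumors. All 24 libraries share that treatment, and no untreated tissue was analysed here.

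By genotype label the libraries are wild type (WT) or knockout (KO) for c-MAF, and by tissue label they are tumor or normal. Titles add a number and a zygosity word to the KO libraries and an age word to the WT libraries. Tumors comprised 4 WT-young libraries, 1 WT-old library and 3 libraries each of KO-8-homo, KO-8-hetero and KO-1-hetero, and normal tissue comprised 2 libraries of each of these 5 kinds. The labels give no meaning for the leading numbers, no allele design, Cre driver, strain, sex or age in weeks, and no link between libraries and animals. Nothing says that the libraries of a group came from separate animals, so each p-value measures the spread between these libraries, which may be technical.

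Wwox encodes a WW-domain oxidoreductase and spans a common fragile site, and losses within it are well known in tumors. Maf encodes a basic leucine zipper transcription factor, and its nearest protein-coding neighbours lie far away on both sides, in a stretch poor in genes. The other neighbours have unrelated roles. Nudt7 is a peroxisomal hydrolase of coenzyme A, Cenpn reads the centromeric histone CENP-A for the kinetochore, and Cmip is an adaptor protein of signalling pathways. Vat1l is a relative of the vesicle protein Vat1, Adamts18 is a secreted metalloprotease, Dynlrb2 is a light chain of dynein, and Cdyl2 is a chromodomain protein.

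The stretch from the start of Adamts18 to the end of Cmip holds 21 genes of the files, namely the 8 neighbours and 13 others, Maf among them. In the GRCm38 build, Maf lies at chr8:115703253-115706894 on the minus strand. At lower coordinates follow Wwox at chr8:114439635-115352712, Vat1l at chr8:114205281-114374074, Nudt7 at chr8:114133574-114154731 and Adamts18 at chr8:113697123-113849343. At higher coordinates follow Dynlrb2 at chr8:116505015-116515915, Cdyl2 at chr8:116568723-116732991, Cenpn at chr8:116921716-116941504 and Cmip at chr8:117257019-117461506. Wwox is the longest, at 913.1 kb, and ends 350.5 kb from Maf, the smallest gap of the 8. The gaps of the others run from 798.1 kb for Dynlrb2 to 1853.9 kb for Adamts18. Cenpn lies wholly inside Cmc2 (chr8:116888685-116944322) on the opposite strand. The library kit marks strand, but whether the counting used strand is not stated in the sources used here, so the Cenpn values are uncertain to that extent.

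The promoters of Nudt7 and Cenpn are shown because these genes passed the test between tumors and normal tissue below. Each is the RefSeq sequence on the GRCm38.p6 build, from 250 bases before to 50 bases after a transcript start of the RefSeq promoter table, on the gene's own plus strand. For both genes that start lies a little inside the gene as given above. Of the 8 neighbours, 6 were matched in that table, and Wwox and Cdyl2 were not. Capitals in Nudt7, at chr8:114133368-114133667, mark the Maf recognition core TGCTGAC on the minus strand. Capitals in Cenpn, at chr8:116921490-116921789, mark a CCAAT box on the minus strand, the cell-cycle element TTTGAA on the minus strand and the E2F-type letters GGCGGGAA on the plus strand.
Nudt7: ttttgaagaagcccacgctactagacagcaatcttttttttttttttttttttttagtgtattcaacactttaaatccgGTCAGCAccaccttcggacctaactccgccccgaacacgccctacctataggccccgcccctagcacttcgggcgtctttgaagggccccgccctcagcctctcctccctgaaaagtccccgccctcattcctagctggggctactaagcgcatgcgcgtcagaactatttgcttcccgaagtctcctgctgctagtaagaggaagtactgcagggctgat
Cenpn: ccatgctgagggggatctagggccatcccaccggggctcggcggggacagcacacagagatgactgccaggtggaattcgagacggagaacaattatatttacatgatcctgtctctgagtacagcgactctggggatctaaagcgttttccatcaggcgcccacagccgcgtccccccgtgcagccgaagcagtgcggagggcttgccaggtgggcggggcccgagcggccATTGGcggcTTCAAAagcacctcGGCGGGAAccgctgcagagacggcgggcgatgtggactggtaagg
Both strands were searched, and the 3 elements in Cenpn do not overlap one another. TGCTGAC was found in 4.67% of 32851 promoters of this length, CCAAT in 37.4%, TTTGAA in 17.9% and GGCGGGAA in 2.19%. Of the matched neighbours, TGCTGAC was found in Nudt7 alone, GGCGGGAA in Cenpn alone, CCAAT also in Adamts18 and TTTGAA also in Nudt7. A match is a run of letters, not a measured binding site.

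Expression is given in FPKM, mapped fragments scaled by transcript length and by the library's total, as the authors deposited it. Relative depth ran from 0.691 to 1.87 of the median library, and 12074 to 13290 genes reached 1 FPKM in a library. Maf itself, the gene named by the genotype label, ranged from 1.52 to 7.40 FPKM in the libraries labelled KO and from 1.37 to 7.26 FPKM in those labelled WT, so its level did not separate the labels. The labels do not say which segment was removed, so the Maf value does not check them. Group names below are therefore those of the titles. All 10 epithelial markers listed were detected, with a summed level of 4553 to 15559 FPKM over the libraries. Xist was at 7.38 to 49.9 FPKM in 6 libraries, namely both KO-1-hetero normal, both KO-8-hetero normal, the third KO-1-hetero tumor and the third KO-8-hetero tumor, and at 0.0719 FPKM or below in the others.

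Of the 8 neighbours, 3 were too low to compare in this tissue. Genes entered the tests when they reached 1 FPKM in at least 4 libraries, which 13799 of the 24346 did. Adamts18 reached at most 0.593 FPKM, and its 3 highest values, 0.260, 0.276 and 0.593 FPKM, were in normal tissue. Dynlrb2 was listed at 0 in 15 libraries and reached at most 0.180 FPKM. Cdyl2 was detected in every library, between 0.184 and 1.21 FPKM, and passed 1 FPKM in the WT-old tumor only. In a fit on all 24346 genes with limma, no comparison called any of these 3 genes, and the smallest adjusted p was 0.0821, for Cdyl2 in tumors against normal tissue (0.17 on the log2 scale). Vat1l passed the filter through 4 normal libraries, at 1.56, 1.90, 1.99 and 2.72 FPKM, and stayed at or below 0.978 FPKM in the other libraries. That left 5 of the 8 with a test, and of these Nudt7, Cmip, Wwox and Cenpn were above 1 FPKM in all 24 libraries.

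**Figure D1:**
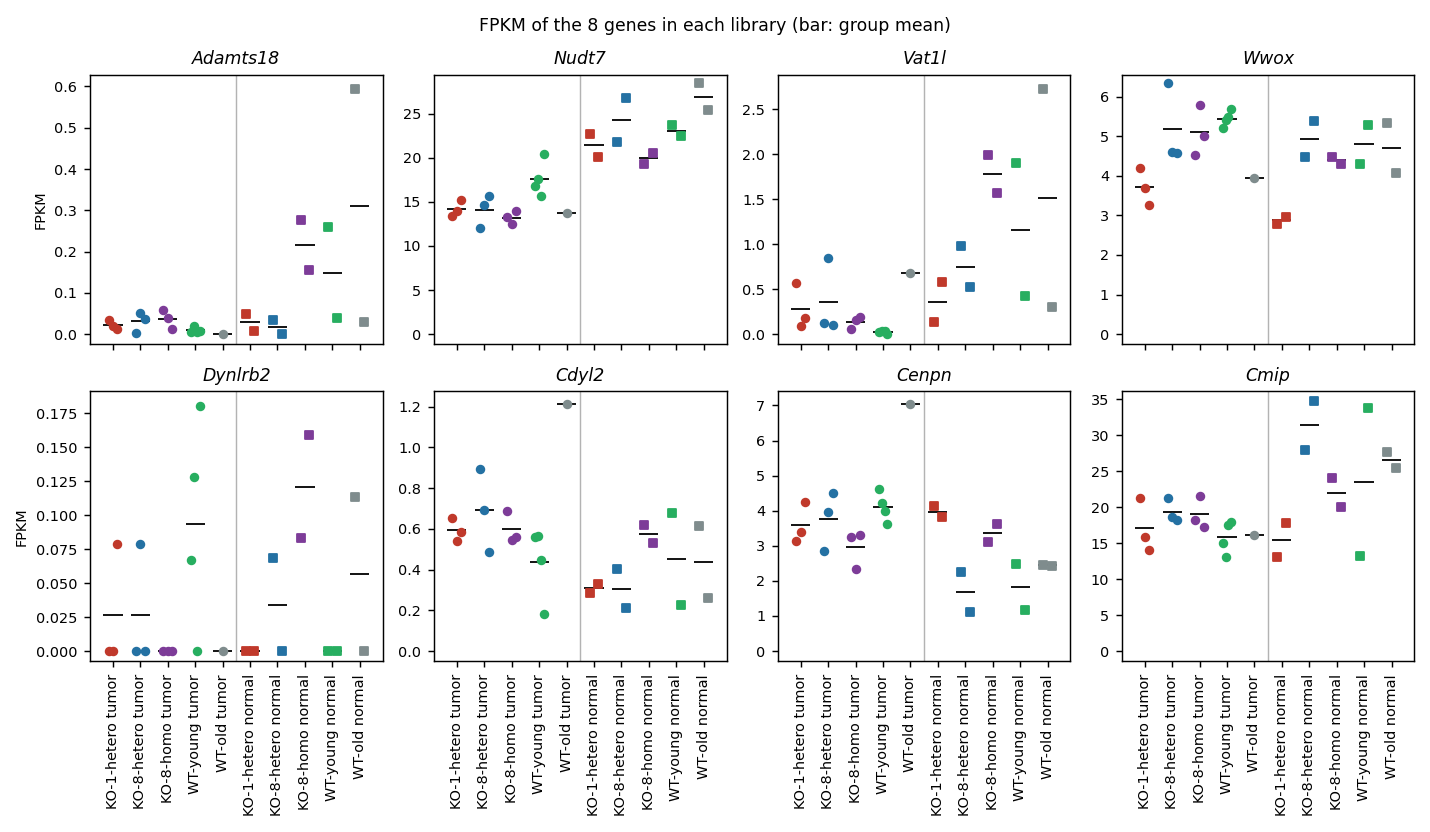
FPKM of the 8 genes on the vertical axis (linear, own scale for each gene) in each library, grouped by title group, with tumors as circles left of the grey line, normal tissue as squares right of it and black bars for group means. Wwox lies lowest in both KO-1-hetero groups (3.26 to 4.19 FPKM in tumors, 2.78 and 2.97 FPKM in normal tissue), while Nudt7 separates tumors from normal tissue apart from 1 WT-young tumor at 20.4 FPKM.

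Wwox was low in the KO-1-hetero libraries of both tissues. The 3 KO-1-hetero tumors gave 4.19, 3.70 and 3.26 FPKM, and the 4 WT-young tumors gave 5.21, 5.41, 5.49 and 5.69 FPKM. The KO-8-hetero tumors gave 6.35, 4.60 and 4.58 FPKM and the KO-8-homo tumors 4.53, 5.79 and 5.01 FPKM. All 3 KO-1-hetero tumors thus lay below the 10 KO-8 and WT-young tumors, and the single WT-old tumor, at 3.95 FPKM, lay among them. Of all genes tested, 14.8% were lower without overlap in KO-1-hetero than in WT-young tumors, and 3.8% were lower without overlap in KO-1-hetero than in the KO-8 tumors, shares from the contrast that chose Wwox. The group mean was 3.72 ± 0.465 FPKM (SD, n = 3) against 5.45 ± 0.201 FPKM (SD, n = 4) in WT-young tumors, a ratio of 0.682. On the log2(FPKM + 1) scale, where changes of weakly expressed genes are compressed, the difference was -0.45. It lay at the 8.27th percentile of all genes tested, a rank on the values for which Wwox was chosen. Against KO-8-hetero tumors the ratio was 0.718 and the log2 difference -0.38.

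In normal tissue the separation was clearer. Wwox stood at 2.78 and 2.97 FPKM in KO-1-hetero normal tissue, below every other normal library. The KO-8-hetero libraries gave 4.47 and 5.40 FPKM, the KO-8-homo libraries 4.48 and 4.30 FPKM, the WT-young libraries 4.30 and 5.30 FPKM and the WT-old libraries 5.33 and 4.06 FPKM. In this contrast 4.43% of all genes were lower than in the 8 other normal libraries without overlap. The KO-1-hetero mean was 0.606 of the WT normal mean and 0.583 of the KO-8-hetero normal mean, with log2 differences of -0.56 (4.62nd percentile) and -0.61. Xist was high in both KO-1-hetero and both KO-8-hetero normal libraries, and only the former had low Wwox. The Xist levels were unequal, though: 30.3 and 28.9 FPKM in the former, 18.2 and 7.38 FPKM in the latter. Among these libraries Wwox was lower where Xist was higher, so the groups were not matched for Xist. The part of Xist in the Wwox level was not tested. With Xist as a covariate the log2 difference from WT normal was -0.37. Among the KO-1-hetero tumors, the 2 with low Xist gave 4.19 and 3.70 FPKM of Wwox, and without all libraries of high Xist the log2 difference from WT-young tumors was -0.38. In bulk tissue, fewer cells that express a gene and less RNA of it per cell cannot be told apart.

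Cell-type markers moved with the tumor contrast. In KO-1-hetero against WT-young tumors, 3 of 10 smooth muscle markers rose (median log2 difference 1.82), and their summed level was 737 to 1118 FPKM against 188 to 390 FPKM. Of the B and plasma cell markers, 5 of 10 rose (median 2.06), with a summed level of 912 to 998 FPKM against 147 to 378 FPKM. Of the epithelial markers, 1 of 10 fell. Of the macrophage markers 1 of 10 rose, Lyz2, and the values of all 10 were above 0, with a summed level of 1200 to 1713 FPKM against 498 to 735 FPKM. Of the T cell markers 1 of 8 rose, Cd3e, and 7 of 8 values were above 0, with a summed level of 38.9 to 83.5 FPKM against 15.8 to 26.5 FPKM. Of the fibroblast markers 1 of 10 rose, Fbln1. The share of all genes called in this contrast was 2.88%. No gene of the smooth muscle, B and plasma cell, macrophage and T cell lists was at 0 in every library. In KO-1-hetero against WT normal tissue none of these markers passed the test, and the medians were -0.43 for smooth muscle, with 0 of 10 values above 0, 0.83 for B and plasma cells, with 9 of 10 above 0, and -0.31 for epithelium. The part of these cell types in the Wwox levels was not tested.

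The KO-8 groups were tested with limma and Benjamini-Hochberg adjustment over the 13799 genes. The choice of Wwox did not rest on the KO-8 libraries. It did use the WT-young tumors, the reference of both KO-8 tumor tests, so those tests are not free of the choice. Wwox in KO-8-hetero tumors was 0.950 of the WT-young mean, a log2 difference of -0.07 (95% interval -0.34 to 0.19, adjusted p = 0.906). In KO-8-homo tumors it was 0.938 of that mean, a log2 difference of -0.08 (95% interval -0.35 to 0.19, adjusted p = 0.883). In normal tissue the differences from WT were 0.05 for KO-8-hetero (95% interval -0.25 to 0.35, adjusted p = 0.878) and -0.09 for KO-8-homo (95% interval -0.39 to 0.22, adjusted p = 0.963). The sign of the KO-8-hetero value depended on the WT reference in tumors and on single libraries in normal tissue.

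No other neighbour passed the test in KO-1-hetero tumors. Against WT-young tumors, 0 of the 4 other neighbours with a test were called by limma at an adjusted p below 0.05, where 2.88% of all genes were (225 higher and 172 lower). At an unadjusted p below 0.05, Nudt7 was the only one of the 4, where 19.1% of all genes were. The differences were -0.29 for Nudt7 (SE 0.113, adjusted p = 0.173), 0.31 for Vat1l (adjusted p = 0.631), -0.16 for Cenpn (adjusted p = 0.686) and 0.09 for Cmip (adjusted p = 0.875). The median of the 4 was -0.04 and that of all genes tested -0.02. Vat1l, which flanks Wwox at lower coordinates, was at 0.569, 0.0928 and 0.182 FPKM in KO-1-hetero tumors and between 0 and 0.0351 FPKM in WT-young tumors, levels below the 1 FPKM of the filter. With a pseudocount of 0.1 in place of 1 its difference was 1.46 and still did not pass. Maf, in the middle of the stretch, was higher in KO-1-hetero than in WT-young tumors by 1.12 (SE 0.223, adjusted p = 0.0172), a call that was lost when the WT-old tumor joined the reference (0.82, adjusted p = 0.118). It was also lost without KO-1-hetero tumor replicate 1 (1.23, adjusted p = 0.0571) or replicate 3 (0.92, adjusted p = 0.101).

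Nudt7 was lower in all KO tumors than in WT-young tumors, at sizes that did not pass the adjusted test. The KO-1-hetero tumors gave 13.4, 13.9 and 15.2 FPKM, the KO-8-hetero tumors 12.0, 14.6 and 15.6 FPKM and the KO-8-homo tumors 13.3, 12.5 and 13.9 FPKM. The WT-young tumors gave 16.8, 17.6, 15.7 and 20.4 FPKM, so the 9 KO and 4 WT-young tumors did not overlap, as was so for 1.3% of all genes in the same direction. The highest KO and the lowest WT-young tumors were nearly level, and the WT-old tumor, at 13.7 FPKM, lay within the KO range. The differences from WT-young were -0.31 for KO-8-hetero (adjusted p = 0.705) and -0.39 for KO-8-homo (SE 0.113, adjusted p = 0.191). These 3 comparisons share the WT-young tumors. Of the 5 neighbours with a test, limma called 0 in tumors of either KO-8 group, where 0.00725% (KO-8-hetero) and 0.457% (KO-8-homo) of all genes were called. At an unadjusted p below 0.05 Nudt7 alone of the 5 was called in each, where 6.96% and 10.1% of all genes were. KO-1-hetero against KO-8-hetero tumors called 0 of the 4 other neighbours, and 0 at an unadjusted p below 0.05, where 0% and 9.88% of all genes were called. KO-8-homo against KO-8-hetero tumors called 0 of 5, and 0 at an unadjusted p below 0.05, where 0.0507% and 5.8% of all genes were called.

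Cmc2, Atmin, Gcsh and Bco1, genes of the same stretch at higher coordinates than Maf, were not called in any comparison between genotype groups either. In KO-1-hetero against WT-young tumors their differences ran from -0.08 for Gcsh to 0.15 for Cmc2. Farther out, between 2 and 5 Mb from Maf as measured between gene starts, 2 of 50 genes were called in KO-1-hetero against WT-young tumors, both higher: Tmem231 (0.69, 3.79 Mb away) and Wfdc1 (1.18, 3.96 Mb away). Between 5 and 10 Mb, 0 of 125 were called, and beyond 20 Mb 18 of 478, beside 2.88% of all genes. In KO-1-hetero against WT normal tissue 1 of 50 genes between 2 and 5 Mb was called, where 0.312% of all genes were. It was Gins2, a DNA replication factor, which was higher by 0.95. The median difference in that contrast was -0.10 between 2 and 5 Mb and -0.11 between 5 and 10 Mb, beside -0.02 over all genes. It was -0.11 over the 13 genes within 2 Mb, Wwox among them. No gene within 20 Mb of Maf fell past the threshold in either of these 2 contrasts, with Wwox not counted. Few fell anywhere: of all 13799 genes, 172 in the tumor contrast and 10 in the normal one. In KO-1-hetero against KO-8-hetero normal tissue, 7 of 50 genes fell and 1 rose between 2 and 5 Mb (16% called, median -0.19), and 7 of 125 fell and 1 rose between 5 and 10 Mb (6.4% called, median -0.24). Within 2 Mb the median of the 13 genes, Wwox among them, was on the other side, at 0.11. Beyond 20 Mb that contrast called 10.7% of the chromosome's genes, and 8.77% of all genes, whose median was -0.01. KO-8-hetero against WT normal tissue, which shares the KO-8-hetero libraries, called 5 of 50 genes between 2 and 5 Mb, 4 of them higher (median 0.09). Within 2 Mb its median was -0.23. Of all genes that contrast called 3.31%, 87 higher and 370 lower (median 0.02). Medians below that of all genes were not particular to KO-1-hetero. KO-8-homo against WT normal tissue gave -0.07 between 2 and 5 Mb and -0.04 between 5 and 10 Mb, beside -0.0065 over all genes.

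**Figure D2:**
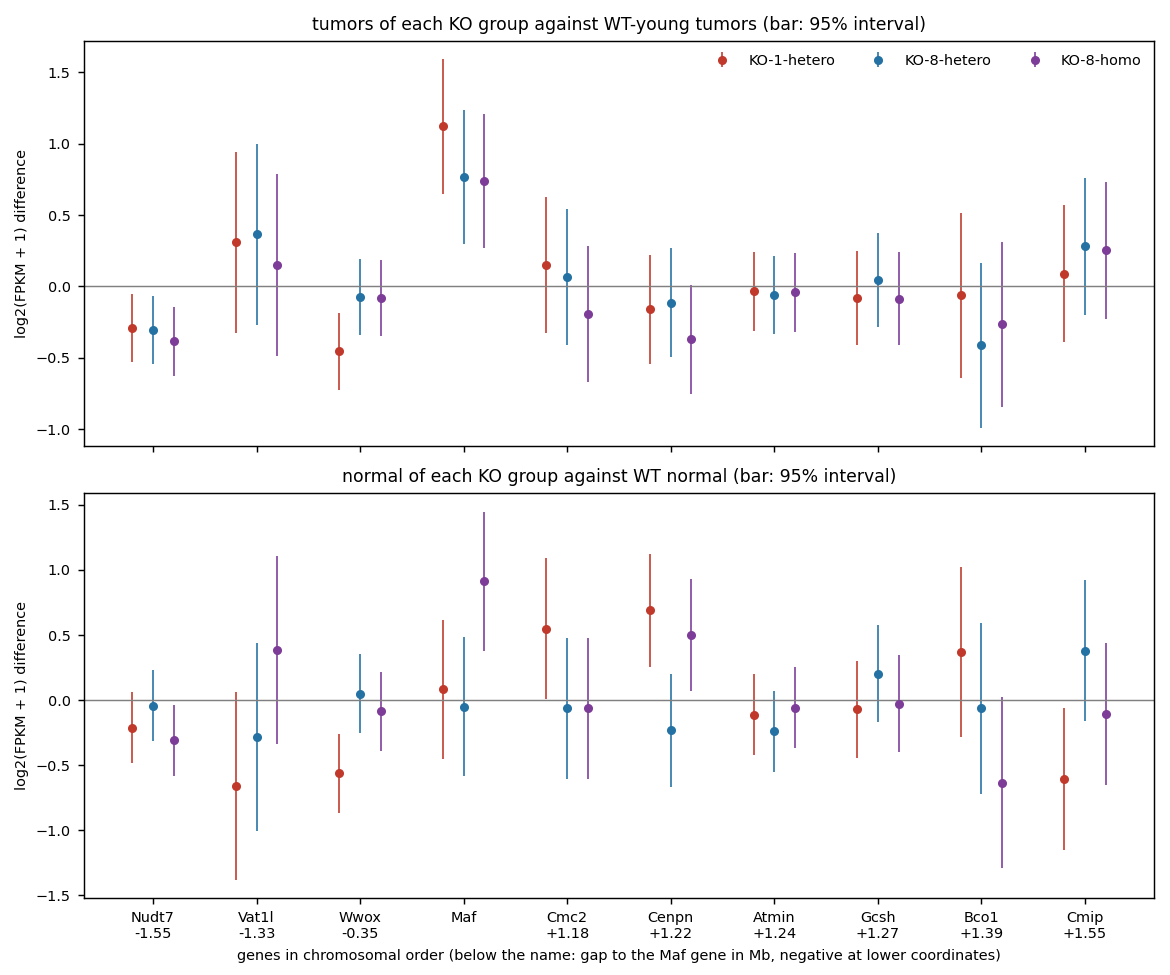
Difference in log2(FPKM + 1) on the vertical axis, each KO group minus WT-young tumors (upper panel) or WT normal tissue (lower panel), for 10 genes of the stretch, in chromosomal order; bars are 95% intervals that are not adjusted for the number of genes. Wwox of KO-1-hetero lies at -0.45 in tumors and -0.56 in normal tissue, while Vat1l beside it lies at 0.31 and -0.66. Because Wwox was chosen for its KO-1-hetero values, its bars for that group are no test. In the lower panel the bars of Vat1l are no test either, as WT normal libraries helped it past the filter.

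In normal tissue of KO-1-hetero against WT, limma called 0 of Nudt7, Cenpn and Cmip, where 0.312% of all genes were called. At an unadjusted p below 0.05 Cenpn and Cmip were called, where 12.7% of all genes were. Cenpn measured 4.14 and 3.81 FPKM in KO-1-hetero, against 2.49, 1.18, 2.45 and 2.43 FPKM in WT, a difference of 0.69 (SE 0.205, limma adjusted p = 0.176). Other dividing-cell genes moved with it: 3 of its 13 centromere partners rose and the values of all 13 were above 0 (median 0.76), and they summed to 91.8 and 93.2 FPKM, where the WT-young libraries gave 43.0 and 66.8 FPKM and the WT-old libraries 52.6 and 59.1 FPKM. Of 12 proliferation genes 1 rose and the values of all 12 were above 0 (median 0.77). Their part in the Cenpn value was not tested. Cmip measured 13.0 and 17.8 FPKM in KO-1-hetero, against 13.2, 33.8, 27.7 and 25.4 FPKM in WT, a difference of -0.61 (SE 0.258, adjusted p = 0.338). The lowest of the 4 WT values fell between those of KO-1-hetero, and the other 3 lay above. The value of Nudt7 was -0.21 (adjusted p = 0.507). That of Vat1l was -0.66, a description with no test, because WT normal libraries were among those through which it passed the filter. One WT library weighed heavily: without WT-young normal replicate 1 the differences were 0.86 for Cenpn and -0.93 for Cmip. Over the libraries left out, Cenpn ran from 0.52 to 0.86 and Cmip from -0.93 to -0.28. The KO-8-hetero normal comparison with WT called 0 of Nudt7, Wwox, Cenpn and Cmip. At an unadjusted p below 0.05 it also called 0 of them, where 3.31% and 24.7% of all genes were called. KO-8-homo normal tissue gave 0 of the same genes, where 0.0362% of all genes were called, and Nudt7 and Cenpn at an unadjusted p below 0.05, where 6.94% were. Cmip in KO-8-hetero normal tissue was at 28.0 and 34.8 FPKM, a difference from WT of 0.38 (limma adjusted p = 0.367). Over the libraries left out this difference ran from 0.06 to 0.70, the latter without WT-young normal replicate 2.

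Set directly against each other, the 2 heterozygous groups differed in normal tissue at Cenpn and Cmip. Cenpn was at 4.14 and 3.81 FPKM in KO-1-hetero and at 2.26 and 1.11 FPKM in KO-8-hetero, a ratio of 2.36 and a log2 difference of 0.92 (SE 0.237, limma adjusted p = 0.0287). Cmip was at 13.0 and 17.8 FPKM against 28.0 and 34.8 FPKM, a ratio of 0.492 and a log2 difference of -0.99 (SE 0.298, adjusted p = 0.0483). For both genes the libraries of the groups did not overlap, as was so for 24% of all genes in the direction of Cenpn and 27.1% in that of Cmip. These were 2 of the 4 neighbours tested, 1 in each direction, where 8.77% of all genes were called. Dividing-cell genes moved with them: 7 of 12 proliferation genes rose (median 0.93), with a summed level of 444 to 471 FPKM against 280 to 334 FPKM. Of 13 partners of Cenpn at the centromere, 3 rose, and 3 of 9 adipocyte markers fell (median -1.37). All 4 libraries had high Xist, though it was lower in KO-8-hetero (18.2 and 7.38 FPKM) than in KO-1-hetero (30.3 and 28.9 FPKM). Both calls were lost without a filter on low values, after quantile normalization, when these groups were fitted alone, and when any of 3 of the 4 libraries was left out. Over all alternatives the adjusted p ran from 0.00241 to 0.407 for Cenpn and from 0.0282 to 0.430 for Cmip. With the replicate number as a block Cmip was lost (adjusted p = 0.0615).

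**Figure D3:**
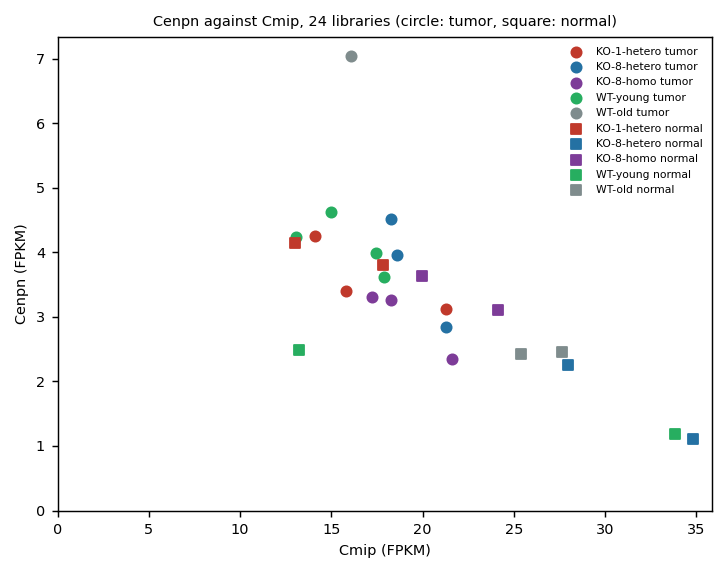
Cenpn (vertical axis, FPKM) against Cmip (horizontal axis, FPKM), 1 point per library, circles for tumors and squares for normal tissue, coloured by title group. The KO-1-hetero normal libraries (red squares) lie among the tumors, at 3.81 and 4.14 FPKM of Cenpn, and the KO-8-hetero normal libraries (blue squares) lie at the lower right.

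Between the tissues, Nudt7 and Cenpn differed past the threshold. The comparison averaged the tumor minus normal differences of the WT-young group and the 3 KO groups. Of Nudt7, Cenpn and Cmip it called Nudt7 and Cenpn, where 60.5% of all genes were called, so calls were common among the genes at large. Nudt7 was between 12.0 and 20.4 FPKM in the 14 tumors (WT-old included) and between 19.3 and 28.5 FPKM in the 10 normal libraries, a ratio of means of 0.644. WT-young tumor 4, at 20.4 FPKM, was the tumor that reached the normal range. Nudt7 fell in tumors by 0.56 (SE 0.0669, limma adjusted p = 3.42e-06). It fell within each title group: by 0.56 in KO-1-hetero (adjusted p = 0.0153, where 14.1% of all genes were called), 0.75 in KO-8-hetero (adjusted p = 0.000557), 0.56 in KO-8-homo (adjusted p = 0.00871) and 0.38 in WT-young (adjusted p = 0.0399). Its relative Nudt19, another peroxisomal coenzyme A hydrolase, also fell (-0.96, adjusted p = 4.31e-06).

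Cenpn was higher in tumors by 0.37 (SE 0.107, adjusted p = 0.00712), with unlike values in the title groups. It rose in KO-8-hetero tumors (0.85, adjusted p = 0.00545, where 43.1% of all genes were called) and in WT-young tumors (0.89, adjusted p = 0.00506, where 26.1% were called). The values were -0.12 in KO-1-hetero (adjusted p = 0.727, 14.1% of all genes called) and -0.14 in KO-8-homo (adjusted p = 0.660, 23% called). The differences between these responses did not pass: against WT-young, the interaction was -1.01 for KO-1-hetero (adjusted p = 0.143, 0.0145% of all genes called) and -1.03 for KO-8-homo (adjusted p = 0.314, 0% called). After quantile normalization the average tumor difference of Cenpn was 0.17 and did not pass (adjusted p = 0.159). Among its 13 centromere partners 6 rose and none fell (46.2% called, against 60.5% of all genes), led by Cenpt, a histone-fold protein of the kinetochore (0.97, adjusted p = 7.77e-08). Of the 12 proliferation genes 7 rose (58.3%), among them Mki67 (0.51, adjusted p = 0.000236). Cmc2, the gene that encloses Cenpn on the other strand, went the other way and fell (-0.39, adjusted p = 0.0183). In KO-1-hetero normal tissue, by contrast, Cmc2 lay on the same side as Cenpn. Its differences were 0.55 from WT (limma unadjusted p = 0.0462, adjusted p = 0.383) and 0.61 from KO-8-hetero (adjusted p = 0.190).

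The tumor minus normal difference of Vat1l was -0.69, and -1.90 with a pseudocount of 0.1. Because it entered the fit only through 4 normal libraries, this difference is a description, with no test. The summed level of the enteric neuron and glia markers was 4.26 to 25.2 FPKM in tumors and 9.34 to 35.6 FPKM in normal tissue. Of its 7 genes tested 5 fell and 1 rose, where 60.5% of all genes were called. All 10 smooth muscle markers fell (median -2.31). The part of these cell types in the Vat1l difference was not tested. Cmip differed by -0.29 (adjusted p = 0.0746), short of the threshold. Wwox differed by 0.17, and by -0.00322 after quantile normalization. These Wwox values are a description with no test, because the average includes the KO-1-hetero libraries for which Wwox was chosen. Of the relatives of the 8 genes in other places, 5 of 6 were tested: Cdyl rose (0.37), Nudt19, Vat1 (-0.48) and Dynlrb1 (-0.25) fell, and Nudt12 did not pass. That is 80% called, beside 60.5% of all genes.

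**Figure D4:**
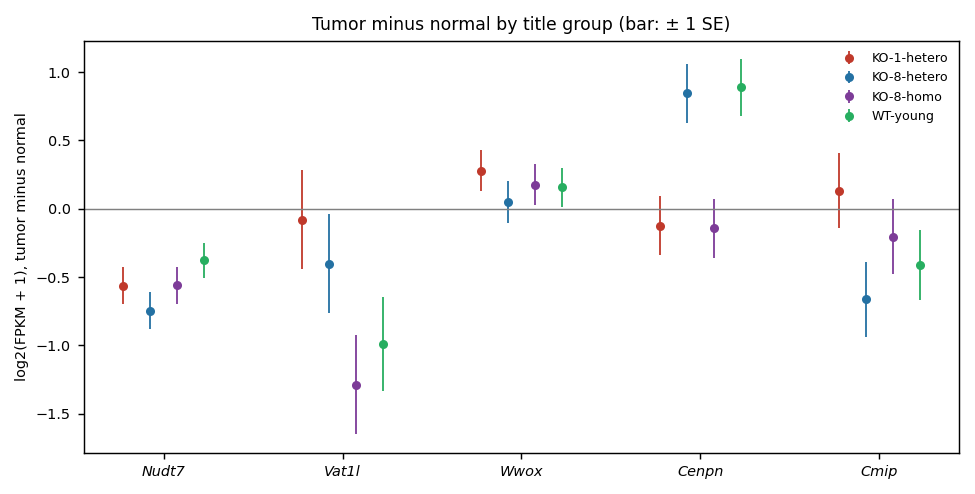
Tumor minus normal difference in log2(FPKM + 1) on the vertical axis for the 5 neighbours that passed the filter, 1 point per title group with a bar of 1 SE on each side. Nudt7 lies below 0 in all 4 groups (-0.38 to -0.75), and Cenpn lies at 0.85 and 0.89 in KO-8-hetero and WT-young and near 0 in the other groups.

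The neighbours did not all vary together. Over the 24 libraries, which share tissue and group differences, Cenpn and Cmip were opposed (Pearson r = -0.78), and Wwox was weakly related to Cenpn (-0.35) and Cmip (0.38). Within groups, with group means removed, r was -0.81 for Cenpn with Cmip, -0.81 for Wwox with Cenpn and 0.65 for Wwox with Cmip. Nudt7 and Wwox gave -0.11 over the 24 libraries and -0.24 within groups, and Wwox and Vat1l -0.09 and 0.10. The genes most like each neighbour over the 24 libraries lay elsewhere. They were Vdac3 (r = 0.955) and Akr1c12 (0.950) for Nudt7, and Syt4 (0.964) and Cyp4b1 (0.945) for Vat1l. For Cenpn they were Ndc1 (0.942) and the mitotic checkpoint kinase Bub1 (0.939), and for Cmip Wipf2 (0.950) and Sipa1l3 (0.927). Wwox had the loosest match, with Ncstn, a subunit of gamma-secretase (0.831), and Nploc4 (0.824).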

How the data were processed

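RNA of 24 mouse colorectal libraries was extracted and sequenced with a kit that marks strand, per the labels' protocols. The authors deposited 1 table of gene FPKM per library, made with TopHat2 2.1.1, Bowtie2 2.2.8, SAMtools 0.1.18 and Cuffdiff 2.2.1 on the mm10 build, per the submitters' processing notes. Each deposited FPKM value is per gene, so transcripts of one gene are not told apart. Fragment totals are unknown; relative depth was read from the steps of low values and spanned 2.70-fold, so low genes are the least precise.

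Values were used as log2(FPKM + 1), after keeping genes with 1 FPKM or more in at least 4 libraries. One limma model (3.58.1, R 4.3.3, Python 3.11.15) held the 10 title groups, with two-sided tests, an intensity trend and Benjamini-Hochberg adjustment at 0.05. WT normal is the mean of the WT-young and WT-old normal groups. On simulated data with 200 changed genes, a shift of 1 on the log2 scale was recovered in 63.2% and a shift of 0.5 in 13.2% of genes for KO-1-hetero against WT-young tumors, and in 53.1% and 7.55% for KO-1-hetero against WT normal tissue.

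The 8 genes, the marker and partner lists and the tests were chosen with earlier results of these data known. Named genes are the 8 neighbours and Maf, genes of the stretch or of a list past the threshold (up to 5 and 3 by p), and the 2 genes most correlated with each neighbour. For the wider chromosome, Tmem231, Wfdc1 and Gins2 were named after their values were seen. Positions come from the RefSeq table of GRCm38.p6, which placed 23143 symbols, and mm10 is the same assembly. A further gene of the stretch is not reported here. No 2 libraries of a group were identical. Deviations from group means were correlated between libraries of equal replicate number. All 3 values of r were above 0.1 in KO-8-hetero against WT-young tumors (0.239, 0.439 and 0.165) and in no other comparison of at least 3 pairs. Libraries of unlike number were not compared, so this cannot show that the numbers pair the libraries. The labels give no meaning to the numbers. The alternatives tried were another pseudocount, no filter, median scaling, quantile normalization, the replicate block, Xist as a covariate, only the groups compared, another WT reference, each library left out and, chosen after seeing the data, no libraries with high Xist.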

Additional observations from a re-analysis of the deposited data

Results flagged for a closer look

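Adamts18 in the WT-young tumors stood out because 1 of the 4 libraries lay far from the others: replicate 2 was at 0.0190 FPKM and the other libraries between 0.00491 and 0.00647 FPKM, so that the gap made up 0.890 of the whole range. All 4 values are far below 1 FPKM, and such a gap is met by chance in about 1 of 20 groups of this size. The largest such gap was looked for in each of the 8 genes and Maf in that group, the only group with at least 4 libraries.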

How the results depend on the processing

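Of the counts of neighbours called, 5 of 76 moved when a library was left out and 5 of 83 under the other alternatives. Small changes of a larger count were not labelled as moved: the count of 3 in tumors against normal tissue ran from 2 to 4. That count includes Vat1l and Wwox, and the counts against WT normal tissue include Vat1l, though the text above gives them no test there. The count of 2 for KO-1-hetero against KO-8-hetero normal tissue became 0 without a filter, after quantile normalization and with only the groups compared, 1 with Xist as a covariate, 1 with the replicate block, and 0 to 2 when a library was left out. Leaving out a library gave 0 to 2 for KO-1-hetero and 0 to 1 for KO-8-hetero against WT normal tissue. Signs reversed for Cmip in KO-1-hetero tumors without KO-1-hetero tumor replicate 1 (-0.0704, in a range up to 0.209 over the libraries left out), for Wwox in KO-8-hetero tumors with the WT-old tumor in the reference (0.00218), and for Wwox over both tissues after quantile normalization (-0.00322). Signs also reversed for Wwox in KO-8-hetero normal tissue without KO-8-hetero normal replicate 2 (-0.0646, in a range up to 0.161), WT-young normal replicate 1 (-0.01) or WT-old normal replicate 2 (-0.03). The cause was not tested. The Wwox difference of KO-1-hetero stayed between -0.55 and -0.38 in tumors and between -0.69 and -0.37 in normal tissue over the alternatives run. The libraries with high Xist could not be left out in normal tissue of the heterozygous groups, where all had it. Over all genes, counts of calls moved far more, mostly with single libraries and with only the groups compared. Against WT-young tumors, the 397 calls of KO-1-hetero ran from 15 to 907 over the alternatives, the 1 call of KO-8-hetero from 0 to 242 and the 63 calls of KO-8-homo from 18 to 135. Against WT normal tissue, the 43, 457 and 5 calls of the same groups ran from 4 to 662, 6 to 4232 and 0 to 89. Against KO-8-hetero tissue, the 1210 calls of KO-1-hetero normal ran from 26 to 4195, the 0 calls of KO-1-hetero tumors from 0 to 160 and the 7 calls of KO-8-homo tumors from 0 to 342. Samples of the same number deviated together in 19 of 78 pairs (r above 0.1), with a median r of 0.00424. The 78 are not all separate: where both groups hold 2 libraries, the deviations mirror each other and both numbers give the same r. Samples of unlike number were not compared, so whether the block shares more than a number was not tested. In KO-8-hetero against WT-young tumors the block called 0 neighbours and 0 of all genes. Low values limit Adamts18, Dynlrb2, Cdyl2 and Vat1l, the part of depth in this is unknown, and the small groups miss most shifts near 0.5.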
